A study of Mus musculus with 10 samples.

Results

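The early neural genes Nes, Sox1, Neurod1, Ncam1, Tubb3, Map2 and Vim were followed in mouse embryonic stem cells through their transcript level and their signal for N6-methyladenosine (m6A), a methylated form of adenosine in RNA. The 7 genes were chosen by name, and all of them are among the 30419 genes of the deposited window tables. The cells were of the J-1 line and were cultured without feeder cells, per the labels. In each of 5 pairs, fragmented total RNA was precipitated with a rabbit polyclonal m6A antibody (the IP library) and compared with RNA that had not been precipitated (the input library). The first pair carries no stated genotype, and the labels mark 2 pairs as mettl3 WT and 2 pairs as mettl3 KO. How Mettl3 was removed, and whether the KO cells are 1 clone, is not given in the sources used here. The growth protocol also mentions differentiation without LIF, the cytokine that keeps these cells undifferentiated, but no library is labelled as differentiated. Separate cultures are not stated for the numbered replicates. The p-values therefore measure only how far these libraries differ among themselves, a spread that may be technical.

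Mettl3 encodes the catalytic subunit of the nuclear complex that writes m6A on messenger RNA, most often in long internal exons and near the stop codon. The 7 genes cover successive steps of neural development. Sox1 is a transcription factor of the earliest neuroectoderm, and Nes and Vim encode intermediate filament proteins, nestin of neural progenitors and vimentin of progenitors and many mesenchymal cells. Neurod1 is a basic helix-loop-helix factor that drives neuronal differentiation, Tubb3 and Map2 encode a tubulin and a microtubule-associated protein of neurons, and Ncam1 encodes a neural cell adhesion molecule.

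The values were the authors' scaled coverage in short windows along the exons of each gene. Depth relative to the first pair was 0.284 to 0.516 in the WT and KO inputs, but 0.159 and 0.0712 in the WT IPs and 0.0644 and 0.0606 in the KO IPs. IP coverage was 0 in 50.5% and 65.4% of all windows in WT and in 74.3% and 67.6% in KO. The targeted gene, Mettl3, had input coverage of 4.79 and 4.67 in WT versus 3.14 and 3.38 in KO. Its log2 change was -0.43 (SE 0.072, limma adjusted p = 0.00259), and it overlaps Tox4, whose reads may be split with it. The pluripotency factor Pou5f1 lay between 246 and 260 in the WT and KO inputs, whereas Dcx, a marker of young neurons, was listed at 0 in all 4. The pluripotency factor Nanog had 198 and 206 in WT versus 166 and 151 in KO. Pax6, a marker of neural progenitors, lay between 0.0883 and 0.123. Other genes known from neural cells were not near 0, as Stmn2 lay between 50.9 and 65.0 and Olig2 between 14.4 and 16.2 in the same inputs.

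The transcript level of a gene was taken as its mean input coverage per window, which is a level per length. Between KO and WT, Nes rose, Neurod1, Sox1 and Vim fell, and Tubb3 and Map2 did not pass the test. Across all genes 26.6% of the 11211 tested were called, 13% as rising and 13.6% as falling. Of the 7 early neural genes, 6 passed the filter, which asked that 2 or more of the 4 inputs labelled WT or KO reach a coverage of 1. Nes passed it only through its KO inputs and Sox1 only through its WT inputs, so the count of calls among those that passed is no support for a change of the group. With a filter on the mean of all 4 inputs (at least 0.5, chosen after seeing the data) all 7 were tested and the same 4 were called, against 23.7% of 12537 genes. The count over all genes fell from 2977 to 1743 without WT replicate 1 and to 1930 without WT replicate 2. In bulk RNA, fewer cells of a type and less RNA per cell cannot be told apart.

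**Figure D1:**
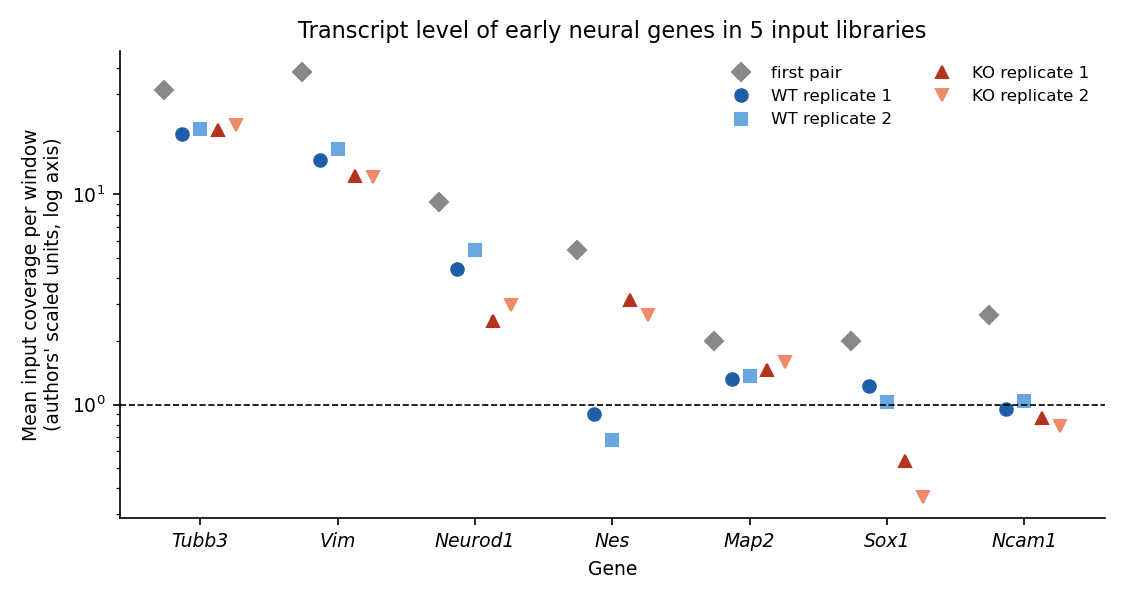
Mean input coverage per window (authors' scaled units, log axis) of the 7 genes in the 5 input libraries, 1 symbol per library, with a dashed line at a coverage of 1. Nes stands higher in both KO inputs (3.15 and 2.67) than in both WT inputs (0.900 and 0.681), Sox1 and Neurod1 stand lower in KO, and the first input is the highest for every gene. The share of all genes with the first input highest was not counted.

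Nes, Sox1 and Neurod1 were the genes of the set with the largest changes in level, and their promoter sequences are given here as RefSeq has them (GRCm38.p6, 250 bases before to 50 bases after the start of the gene, read 5′ to 3′ on the strand of the gene). The table lists 6 of the 7 genes. Capitals mark the E-box CANNTG, the motif class of basic helix-loop-helix factors such as Neurod1 itself, searched on both strands.
Nes, chr3:87970843-87971142, plus strand: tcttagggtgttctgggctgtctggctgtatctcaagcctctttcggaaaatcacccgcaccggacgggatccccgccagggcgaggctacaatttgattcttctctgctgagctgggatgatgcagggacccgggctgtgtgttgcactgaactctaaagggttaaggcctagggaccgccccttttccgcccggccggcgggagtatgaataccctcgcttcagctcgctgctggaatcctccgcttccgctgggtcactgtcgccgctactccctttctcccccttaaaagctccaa
Sox1, chr8:12395269-12395568, plus strand: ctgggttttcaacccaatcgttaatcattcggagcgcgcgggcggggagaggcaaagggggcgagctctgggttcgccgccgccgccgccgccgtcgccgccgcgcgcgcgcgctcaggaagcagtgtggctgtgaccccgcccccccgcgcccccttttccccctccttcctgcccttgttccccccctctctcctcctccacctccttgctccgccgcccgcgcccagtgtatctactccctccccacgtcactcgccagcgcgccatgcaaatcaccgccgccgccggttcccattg
Neurod1, chr2:79456587-79456886, minus strand: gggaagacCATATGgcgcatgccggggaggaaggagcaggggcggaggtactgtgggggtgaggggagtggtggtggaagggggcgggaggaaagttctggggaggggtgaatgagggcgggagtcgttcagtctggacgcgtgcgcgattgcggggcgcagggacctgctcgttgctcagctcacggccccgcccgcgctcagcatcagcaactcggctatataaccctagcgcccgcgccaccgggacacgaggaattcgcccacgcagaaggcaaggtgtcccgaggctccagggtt
The Neurod1 window holds 1 match, at position -242 from the start, and the Nes and Sox1 windows hold none. Of 32851 promoters of the same length in the table, 72.3% hold at least 1 match. The windows were rich in G and C, at 58.7% for Nes, 70.7% for Sox1 and 66.7% for Neurod1, against a median of 52.7% over all promoters. The windows of Tubb3 (67.3%), Map2 (77.7%) and Vim (59.3%), not printed here, were also above that median and held no match. Neither trait is thus particular to the genes with the largest changes.

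Sox1 input coverage was 2.00 in the first input, 1.22 and 1.03 in WT versus 0.539 and 0.365 in KO. The KO inputs were the lowest, and the groups did not overlap, as in 65.7% of the 11211 genes tested. Means were 1.12 ± 0.137 in WT and 0.452 ± 0.123 in KO (SD, n = 2), a 2.49-fold higher level in WT. Changes are given as log2(coverage + 1), which makes those of poorly covered genes look smaller. For Sox1 the change was -0.55 (SE 0.097, limma adjusted p = 0.0034), and the adjusted p was 0.00431 with the filter on the mean. The level is low in absolute terms: 29 of the 81 Sox1 windows had a mean input coverage of at least 1.

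Neurod1 input coverage was 9.24 in the first input, 4.40 and 5.43 in WT versus 2.50 and 2.98 in KO. Both KO inputs were below both WT inputs, where 65.7% of all genes tested had no overlap in either direction. The means were 4.92 ± 0.728 and 2.74 ± 0.335 (SD, n = 2), 1.80-fold higher in WT, and the log2 change was -0.66 (SE 0.099, limma adjusted p = 0.00144). The gene was well covered, with 50 of 51 windows at a mean input of at least 1.

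Nes moved the other way. Its input coverage was 5.42 in the first input, 0.900 and 0.681 in WT versus 3.15 and 2.67 in KO. The WT inputs were the low ones, and the KO inputs lay between them and the first input. WT and KO did not overlap, as in 65.7% of all genes tested. KO exceeded WT 3.68-fold (0.791 ± 0.155 against 2.91 ± 0.336, SD, n = 2), with a log2 change of 1.13 (SE 0.096, limma adjusted p = 5.22e-05) that ranked 39 by size among 11211 genes. The difference was seen along the transcript. In exon 4, which holds 101 of the 124 windows, coverage was 1.05 and 0.770 in WT against 3.66 and 3.09 in KO, and in the other exons it was 0.226 and 0.293 against 0.900 and 0.851.

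Vim, the other intermediate filament gene, was far more abundant and fell slightly. Its input coverage was 38.2 in the first input, 14.5 and 16.4 in WT versus 12.2 and 12.1 in KO. The groups did not overlap, as in 65.7% of all genes tested, and the means of 15.4 ± 1.31 and 12.2 ± 0.0951 (SD, n = 2) differed 1.27-fold. The log2 change was -0.32 (SE 0.072, limma adjusted p = 0.0113). It rested on 1 library: without WT replicate 2 the change was -0.24 (limma adjusted p = 0.0967).

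Tubb3 and Map2, the microtubule genes, differed little. Tubb3 input coverage was 31.2 in the first input, 19.3 and 20.4 in WT versus 20.1 and 21.3 in KO, with overlapping groups and a log2 change of 0.06 (SE 0.065, limma adjusted p = 0.537). Map2 input coverage was 2.01 in the first input, 1.33 and 1.37 in WT versus 1.46 and 1.60 in KO. The Map2 groups did not overlap, which was true of 65.7% of all genes tested, and the log2 change was 0.11 (SE 0.081, limma adjusted p = 0.363). Map2 coverage was uneven in WT and KO. Its longest exon, exon 15, had 1.80, 1.99, 2.02 and 2.08 in WT and KO, whereas its other 14 exons had 0.474, 0.259, 0.443 and 0.725. In the first input both parts were alike, at 1.98 and 2.07.

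Ncam1 was the gene that the filter of coverage of at least 1 left out. Its input coverage was 2.68 in the first input, 0.947 and 1.04 in WT versus 0.866 and 0.790 in KO. With the filter on the mean its log2 change was -0.12 (SE 0.082, limma adjusted p = 0.302). Most of this signal came from exon 1 in the numbering of the files, with 1.76 and 2.11 in WT versus 1.71 and 1.63 in KO, and the mean over the windows of the other 19 exons lay between 0.338 and 0.513 in these libraries. Ncam1 overlaps Gm11149, which also has windows, and whether the counting used the strand is not given in the sources used here.

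In WT the order of levels per length was Tubb3, Vim, Neurod1, Map2, Sox1, Ncam1 and Nes, and in KO it was Tubb3, Vim, Nes, Neurod1, Map2, Ncam1 and Sox1. The levels of Sox1 and Ncam1 in WT (1.03 to 1.22 and 0.947 to 1.04) overlapped, as did those of Nes and Neurod1 in KO (2.67 to 3.15 and 2.50 to 2.98). The first input was above the other 4 for every one of the 7 genes. The share of all genes with this order was not counted, so it is no mark of these genes. By summed coverage, the first input was also the highest for most of the other gene lists named below. Exceptions were the other neuronal genes (272, up to 286 in KO) and the pluripotency genes (3280, up to 3351 in WT). Being 1 library of unstated genotype, it was not tested.

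The columns of the deposited RPKM table gave other directions for some of these genes, and they were not used for levels. Across 11018 genes the columns labelled KO input correlated with the coverage of the KO IP libraries (r = 0.957 and 0.973) more than with that of their own inputs (0.683 and 0.698). The WT columns correlated with their own inputs (0.992 and 0.992). In the RPKM table Sox1 (log2 change 1.37) and Neurod1 (1.45) were higher in KO, and Nes was also higher (2.65). Sox1 and Neurod1 were also the genes of the set with the highest IP coverage relative to input, as given below for each pair.

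Genes with the most similar pattern over the 5 inputs were found by the distance of their centred log2(coverage + 1) values among up to 6601 genes with a mean coverage of at least 5. For Nes they were Cyr61, a secreted matrix-associated protein (distance 0.241), and Tpm1, a tropomyosin of actin filaments (0.278). Cyr61 had 3.35 and 3.49 in WT versus 9.31 and 8.59 in KO, and Tpm1 had 10.5 and 10.8 against 24.8 and 24.0. For Neurod1 they were Irf2bpl (0.182) and E130012A19Rik (0.195), for Vim Lypla2 and Bckdha, for Tubb3 Tcfl5 and Prpf31, and for Map2 Ddx1 and Vps41. The distances for Tubb3 and Map2 were 0.0227 to 0.0392. All these genes were chosen by their values in the same 5 inputs, so a shared pattern between WT and KO follows from the choice.

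Other genes of the same developmental steps also went both ways. Of 38 other neural progenitor genes 14 were tested, of which 5 rose and 2 fell, where 13% of all genes tested rose and 13.6% fell. Their median log2 change was 0.10, against -0.0048 for all genes tested. Those that rose included Hmga2, a chromatin protein of fetal progenitors (1.29), Zic2, a zinc finger factor of the neural plate (0.73), and Prom1 (0.66), which passed the filter only through KO. The Notch target Hes1 (-0.38) and the Notch ligand Dll1 (-0.39), which passed only through WT, fell. Of 40 other neuronal genes 17 were tested, of which 4 rose and 6 fell (13% and 13.6% of all genes), and their median was -0.23. Tagln3 (0.89), the neurofilament-related Ina (0.47), Tubb2b (0.36) and Map1b (0.35) rose, and Mapt, which encodes tau (-0.76), Elavl3 (-0.35), the proneural factor Neurog1 (-0.33) and Stmn2 (-0.25) fell. Neurog1 passed the filter only through WT. With the filter on the mean, 6 of 17 progenitor genes rose and 3 fell, and 4 of 20 neuronal genes rose and 6 fell, where 11.4% of all genes rose and 12.3% fell.

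Markers of other cell types moved with these changes, and their part in the results was not tested. Over all genes tested, the shares were 13% rising and 13.6% falling. Of 22 mesenchymal and fibroblast genes 8 were tested, 5 rose and none fell, and with the filter on the mean 5 of 10 rose and 1 fell. Tagln (1.70), Thbs1 (1.35) and Cald1 (0.83), genes of contractile cells and their matrix, were among them, and Thbs1 passed the first filter only through KO. The summed coverage of the 22 genes was 96.4 and 98.5 in WT versus 123 and 119 in KO, and the defining collagen Col1a1 stayed near 0 (0.0868 and 0.0567 in WT, 0.287 and 0.204 in KO). Of 15 neural crest and epidermal ectoderm genes 5 were tested and 3 rose, among them the keratins Krt8 (1.30) and Krt18 (1.26). Of 15 glial genes 4 were tested and 2 rose, Olig1 (0.56) and Slc1a3 (0.55), while Gfap was listed at 0.0353 to 0.128 in WT and KO. Of 24 pluripotency genes, all tested, 2 rose and 12 fell, with summed coverage of 3243 and 3351 in WT versus 2696 and 2547 in KO. Dppa3 (1.62) rose and Tbx3 (-0.81), Fbxo15 (-0.74) and Fgf4 (-0.60) fell. The mesoderm list (1 tested) had no call, and the endoderm list (3 tested) had 1 call in each direction, Lamb1 (0.22) and Cxcr4 (-0.36).

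For the m6A signal, coverage in the IP was first divided by coverage in the input over the whole gene. Sox1 and Neurod1 stood highest and Vim low in every pair. Sox1 had ratios of 7.60 in the first pair, 5.35 and 9.91 in WT versus 5.62 and 16.1 in KO, at the percentiles 97.9, 91.9, 98.3, 93.9 and 99.7 of the genes ranked. Its WT and KO ratios overlapped. Neurod1 had 5.53, then 4.64 and 4.39 in WT versus 3.89 and 4.81 in KO, also overlapping, between the percentiles 87.0 and 95.2. Nes had 1.52, then 2.88 and 3.95 in WT versus 2.32 and 3.24 in KO, and the first pair was the lowest. The ratios of Sox1, Neurod1 and Nes lay above the median of all genes in every pair. That median was 0.923 in the first pair, 1.27 and 1.25 in WT versus 1.06 and 1.11 in KO. Tubb3, a neuronal gene, was above the median in every pair as well, and Vim, also a progenitor gene, was below it in every pair.

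Tubb3 had ratios of 1.64 in the first pair, 2.07 and 2.56 in WT versus 1.67 and 1.79 in KO, so both KO pairs were below both WT pairs. The share of all genes without overlap in this ratio was not counted. The median of all genes was also lower in KO (1.06 and 1.11) than in WT (1.27 and 1.25). The percentiles of Tubb3 were 65.0 and 71.3 in WT versus 64.0 and 64.5 in KO. Vim had 0.569, then 0.434 and 0.446 in WT versus 0.360 and 0.475 in KO, at the percentiles 17.1 to 28.4. Map2 had 0.536, then 0.647 and 0.400 in WT versus 2.03 and 0.193 in KO. Ncam1 had 0.558, then 1.14 and 1.04 in WT versus 2.05 and 0.865 in KO. The KO pairs of Map2 and Ncam1 lay on both sides of the WT pairs.

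**Figure D2:**
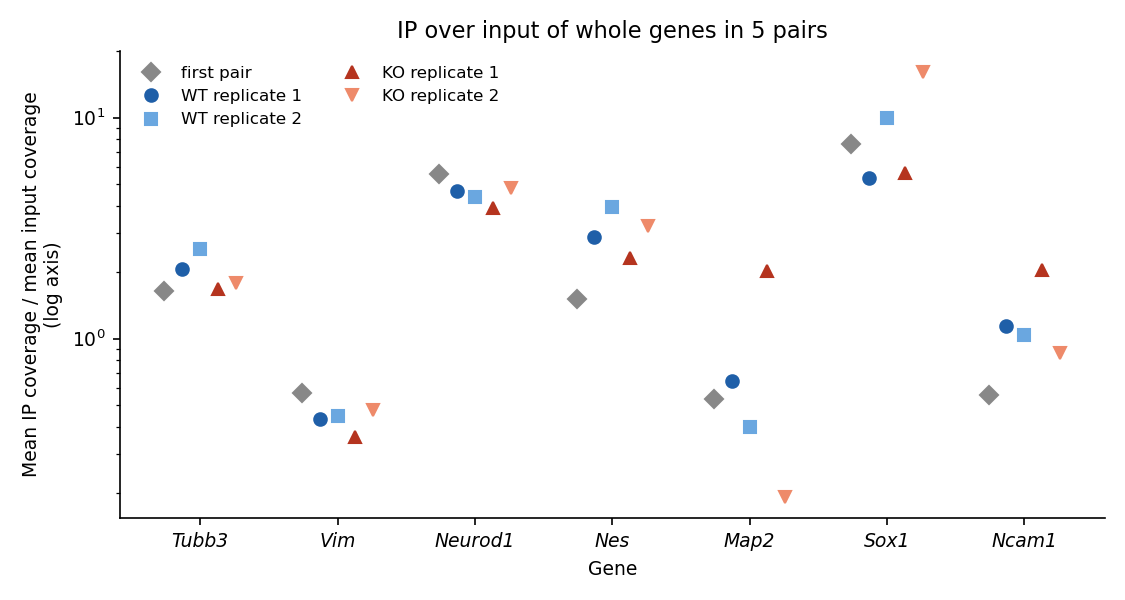
Mean IP coverage divided by mean input coverage over the whole gene (log axis) for the 7 genes, 1 symbol per pair. Sox1 (5.35 to 16.1) and Neurod1 (3.89 to 5.53) stand highest and Vim (0.360 to 0.569) low in every pair, and the KO pairs of Map2 lie far apart (2.03 and 0.193). Sox1 and Ncam1 had a mean coverage under 1 over the 4 WT and KO inputs, so their ratios divide by low values.

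By the rule that a gene with a mean coverage under 1 over the 4 WT and KO inputs is too low for IP over input by window, Sox1 (0.788) and Ncam1 (0.910) were too low. Map2 (1.44) and Nes (1.85) were just above it, and Neurod1 (3.83), Vim (13.8) and Tubb3 (20.3) were well above it. Nes passed only through its KO inputs (3.15 and 2.67), as its WT inputs were 0.900 and 0.681. In the WT inputs 76 and 91 of its 124 windows were under 1, against 15 and 21 in KO. By the same floor taken per group, Nes was too low for IP over input by window in WT. Taken this way, Sox1 was just above the floor in WT (1.12) and under it in KO (0.452). Ncam1 was under it in both WT (0.993) and KO (0.828). By window, 105 of 124 in Nes, 78 of 118 in Map2 and 88 of 198 in Ncam1 reached a mean input of 1, as did all 37 of Tubb3 and all 41 of Vim. The IP was a second limit. In KO the windows with an IP coverage of 0 made up 59.3% and 59.3% of Sox1, 51.0% and 35.3% of Neurod1, 87.4% and 86.9% of Ncam1, and 83.1% and 88.1% of Map2. In the same pairs they made up 41.9% and 25.0% of Nes, 53.7% and 29.3% of Vim, and 2.70% and 10.8% of Tubb3.

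The authors' winscore is the log2 of the IP in a window over its gene median, divided by the same ratio in the input, with 1 added to each of the 4 values. It measures where along a transcript the antibody signal is concentrated, and a window with no coverage still has a score, set by the gene medians. The median of the IP over the gene was 0 for Sox1 in both KO pairs, for Neurod1 and Vim in KO replicate 1, and for Ncam1 and Map2 in all WT and KO pairs. It was above 0 for Sox1 in WT (0.785 and 1.34) and for Neurod1 in the other pairs (3.89 to 7.53), so winscores of KO and WT in these genes do not rest on like medians. Regions were runs of 2 or more windows whose winscore reached 2 in the first pair, a pair on neither side of the comparison of KO with WT. Among the 11018 genes with enough input, 54.6% held a region. Nes, Neurod1 and Tubb3 held 1 each, and Map2 and Vim held none. In the wider set of 12537 genes with a mean input of at least 0.5 (53.8% with a region), Sox1 held 3 and Ncam1 none. Exon numbers in the files run in genome order. On the plus strand 70.9% of windows with a winscore of at least 3 lay in the last-numbered exon, and on the minus strand 71.0% lay in exon 1, so exon 1 of Neurod1, a gene on the minus strand, is its 3′ exon.

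Sox1 is a gene of 1 exon, and its signal fell into separate peaks. In windows 41 to 50 of 81 the mean winscore was 3.90 in the first pair, 3.35 and 3.73 in WT versus 3.31 and 3.71 in KO, and WT and KO overlapped. These windows held 61.9% of the gene's IP coverage in the first pair, 61.4% and 71.6% in WT versus 70.6% and 78.9% in KO, against 15.4% to 22.0% of its input coverage. In window 45 the IP was 78.4, then 74.1 and 103 in WT versus 36.5 and 90.5 in KO, over an input of 1.98, 2.37, 3.07, 0.654 and 0. The KO minus WT difference of this region was -0.03 (SE 0.57, limma adjusted p = 0.994).

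The other Sox1 regions were less evenly covered. Windows 22 to 25 had winscores of 2.98 in the first pair, 3.64 and 2.60 in WT versus 1.63 and 3.03 in KO, and the groups overlapped (-0.79, limma adjusted p = 0.778). Windows 12 to 14 had 2.46, then 2.94 and 2.15 in WT and 1.41 in KO replicate 1. In KO replicate 2 both the IP and the input were 0 there, which leaves no measurement in that pair. The region was in the test of the wider set and did not pass (-1.78, limma adjusted p = 0.574). That value draws on the pair without coverage, so it is no comparison of KO with WT. KO replicate 2 also had a winscore of 4.51 in window 66, a window chosen after its values were seen, over an input of 0. KO replicate 1 had 2.17 there, WT 1.19 and -0.80, and the first pair -1.15.

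Neurod1 had 1 broad region, windows 29 to 46 of exon 1. Read along the transcript these are windows 6 to 23 of 51. Its mean winscore was 3.31 in the first pair, 2.62 and 3.52 in WT versus 3.71 and 2.80 in KO, with WT and KO overlapping. The region held 93.1% of the IP coverage of the gene in the first pair, 86.5% and 89.8% in WT versus 95.6% and 87.1% in KO, against 17.9% to 26.6% of its input coverage in WT and KO and 62.0% in the first pair. IP over input in the region was 8.32, then 16.2 and 22.0 in WT versus 14.0 and 15.7 in KO. Window 39 had an IP of 84.2, then 118 and 129 in WT versus 91.4 and 70.8 in KO, over inputs of 3.52, 6.12, 4.48, 4.22 and 3.50. The difference in winscore was 0.18 (SE 0.65, limma adjusted p = 0.961), and it turned to -0.26 without WT replicate 1 and to -0.27 without KO replicate 1. The log2 IP over input, taken with 1 added to each coverage and less the median of its pair outside regions, differed by -0.24 (SE 0.35, limma adjusted p = 0.841).

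**Figure D3:**
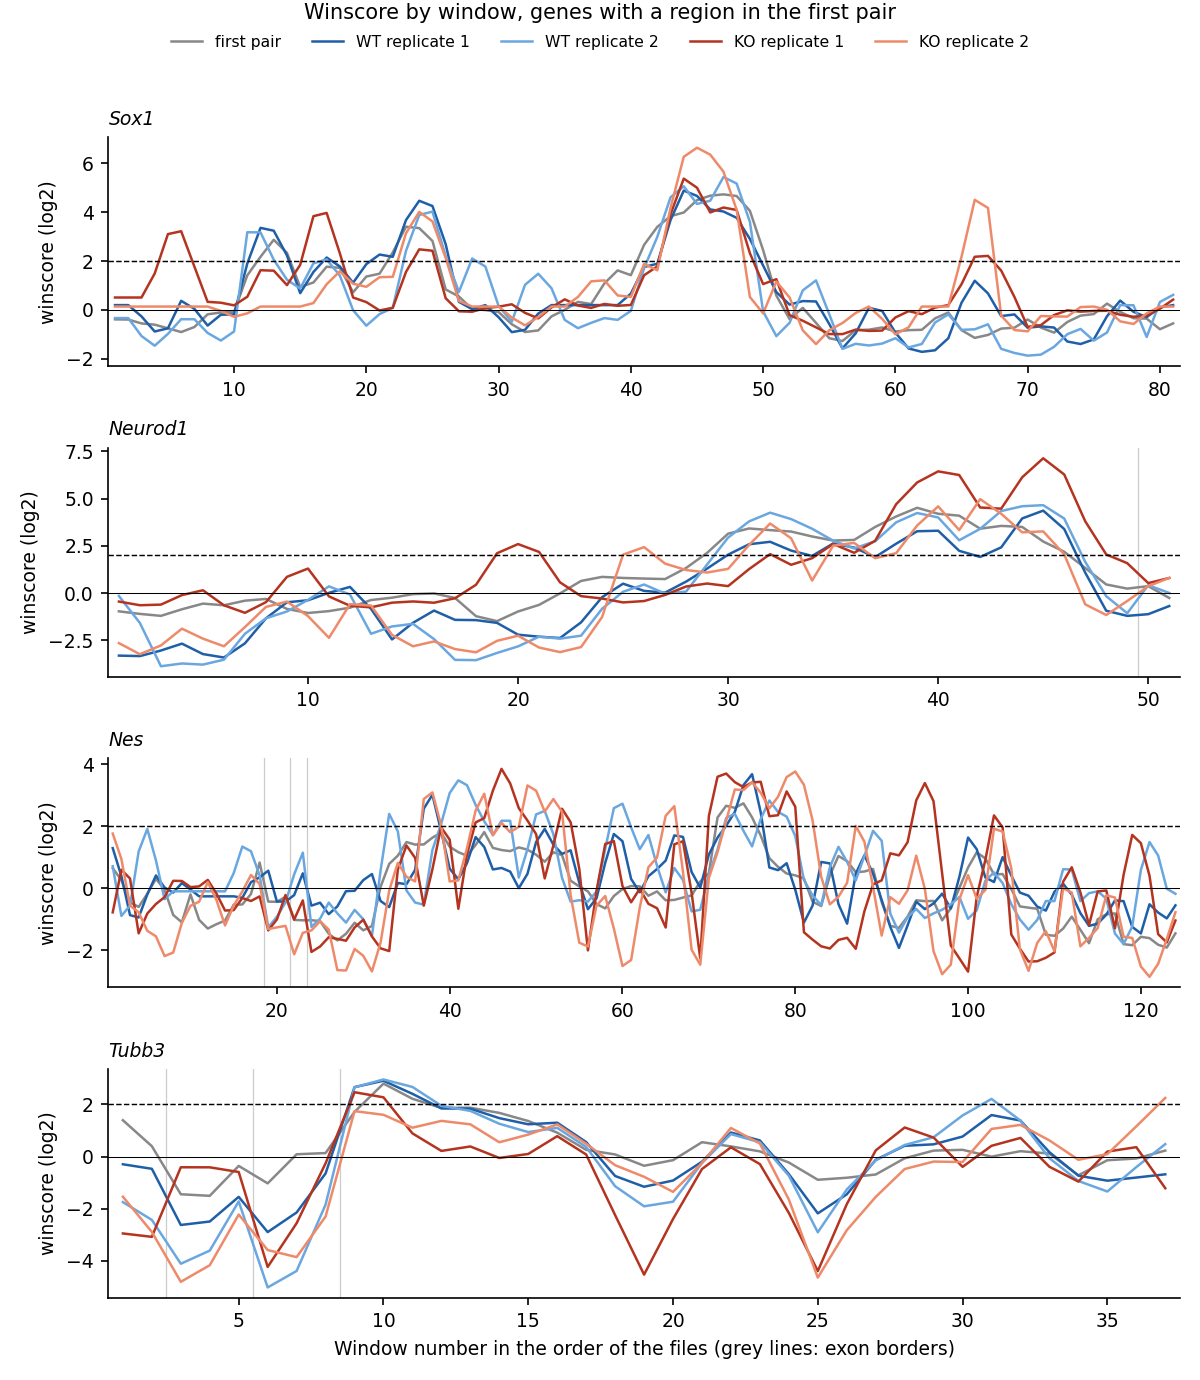
Winscore (log2) by window along Sox1, Neurod1, Nes and Tubb3 in the order of the files, 1 line per pair, with a dashed line at 2, the threshold used for regions, and grey lines at exon borders. The peak of Sox1 at windows 41 to 50 and the broad peak of Neurod1 at windows 29 to 46 are present in all 5 pairs, and the KO lines of Tubb3 run lower than the WT lines at windows 2 and 3 of exon 4, whereas that of KO replicate 1 is close to them (2.47) in window 1.

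Nes had its region in exon 4, the long last exon, at windows 48 to 52 of that exon. The mean winscore was 2.51 in the first pair, 2.62 and 1.82 in WT versus 3.47 and 2.62 in KO. WT replicate 1 and KO replicate 2 were level, and KO replicate 1 was the highest. IP over input was 7.74, then 12.4 and 8.85 in WT versus 11.4 and 9.58 in KO. These plain ratios overlapped between WT and KO, over inputs of 1.06 and 0.578 in WT versus 3.78 and 3.47 in KO. The winscore differed by 0.83 (SE 0.67, limma adjusted p = 0.747). With 1 added and the median of each pair subtracted, the log2 IP over input was 3.35 and 2.75 in WT versus 4.24 and 3.69 in KO. That difference of 0.95 (SE 0.44, limma adjusted p = 0.505) is not seen in the plain ratios. Beyond this region the profile of Nes was uneven, with winscores of at least 2 in 5 windows of the first pair, 7 and 19 in WT versus 24 and 25 in KO. The profile was also the least alike between the WT pairs, with a correlation of 0.46 over 124 windows, where Tubb3 had 0.95 over 37, Neurod1 0.93 over 51 and Sox1 0.86 over 81. These correlations describe windows that overlap the same fragments and share libraries.

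Tubb3 had a narrow region at windows 2 and 3 of exon 4, its last exon. Its winscore was 2.51 in the first pair, 2.66 and 2.82 in WT versus 1.58 and 1.36 in KO, and the KO pairs were the 2 lowest. How many of all regions had no overlap of WT and KO was not counted. In window 1, next to the region, the winscore was 2.67 and 2.66 in WT versus 2.47 and 1.75 in KO, and this window was the highest of the gene in KO replicate 1. Inputs in the region were close, at 18.5 and 20.1 in WT versus 18.3 and 17.6 in KO, whereas the IP was 158 and 221 in WT versus 99.1 and 71.2 in KO. The ratio was 8.51 and 11.0 in WT, 5.41 and 4.05 in KO and 5.26 in the first pair. The winscore differed by -1.27 (SE 0.64, limma adjusted p = 0.62) and the log2 IP over input by -0.81 (SE 0.46, limma adjusted p = 0.562), so the difference did not pass the test.

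**Figure D4:**
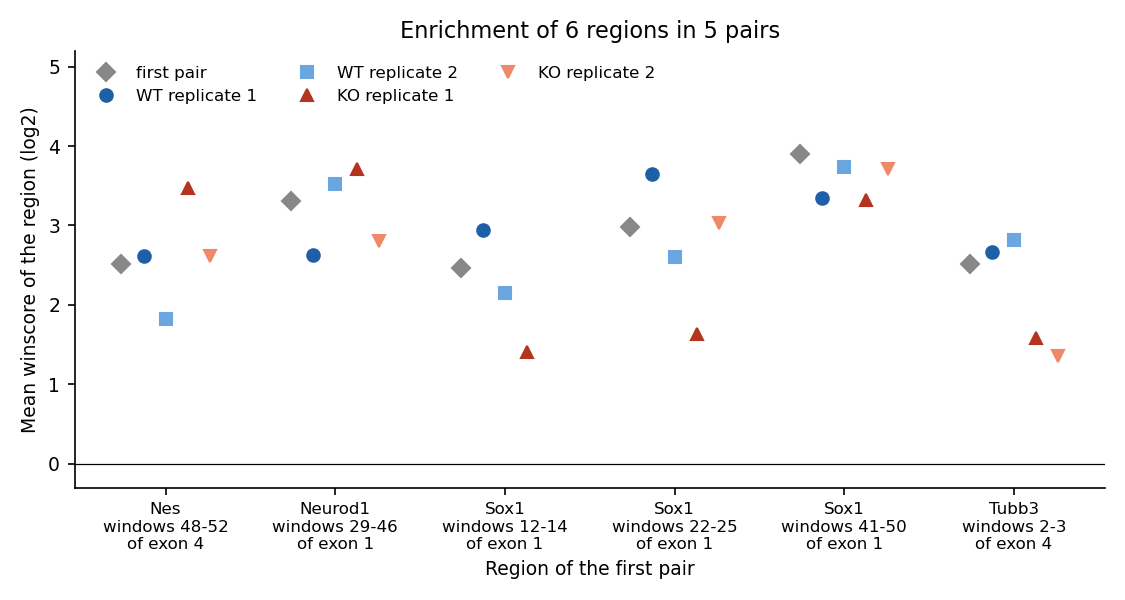
Mean winscore (log2) of the 6 regions of Nes, Neurod1, Sox1 and Tubb3, 1 symbol per pair. WT and KO overlap or touch in Nes, Neurod1 and the Sox1 regions at windows 22 to 25 and 41 to 50, and both KO pairs lie below both WT pairs in Tubb3, a difference that did not pass the test. The share of all regions without overlap was not counted. KO replicate 2 is not drawn for Sox1 windows 12 to 14, where it had no coverage.

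Against a winscore of 0, the regions of Nes, Neurod1 and Tubb3 passed in WT (limma adjusted p = 0.00127, 0.000132 and 0.000255) and in KO (0.000178, 9.5e-05 and 0.011). Among all regions 98.3% passed in WT and 94.3% in KO, so passing is no mark of these genes. In the wider set, where 97.5% passed in WT and 92.2% in KO, all 3 Sox1 regions passed in WT. In KO the regions at windows 22 to 25 (limma adjusted p = 0.00213) and 41 to 50 passed, and that at windows 12 to 14 could not be judged, as 1 of the KO pairs had no coverage there. Where the IP gene median is 0, a winscore of 0 is not the level without enrichment. This holds for Neurod1 in KO replicate 1 and for Sox1 in both KO pairs. Over exon 1 of Neurod1 in that pair the mean winscore was 1.55, while the mean log2 IP over input, with 1 added, was -0.16. Passing in KO is thus not by itself a sign of enrichment in Neurod1 and Sox1. The Nes region rested on WT replicate 1, without which its WT value was 1.82 (limma adjusted p = 0.0638). Between KO and WT none of 9963 regions passed in limma (0% called), with 809 at an unadjusted p under 0.05, 324 higher and 485 lower in KO. For the log2 IP over input none of 9475 passed, with 968 at an unadjusted p under 0.05, 306 higher and 662 lower. With 1 KO replicate left out these counts were 344 without KO replicate 1 and 1221 without KO replicate 2 for the winscore, and 544 and 1562 for the ratio. The lone KO sample was then assumed to vary like the WT samples, and the regions of Nes, Neurod1 and Tubb3 were not among the calls.

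Map2 and Ncam1, without a region in the first pair, had short runs of high windows at the same place in the WT and KO pairs. The windows named here were chosen after their values were seen. Winscores reached 2 in all 4 WT and KO pairs in 2 windows of Map2, which are windows 8 and 9 of exon 15, and in 3 windows of Ncam1, which are windows 39, 57 and 58 of exon 1. No window of Vim or Tubb3 did so, while Nes had 3, Sox1 8 and Neurod1 11. The share of such windows over all genes was not counted. The threshold was not alike in all pairs, as a window without coverage already had a score. In Map2 this score was 1.13 and 1.12 in WT versus 1.30 and 1.32 in KO, and 0.763 in the first pair. In Ncam1 it was 0.871 and 0.775 in WT versus 0.720 and 0.433 in KO, and 0.383 in the first pair. In Map2, window 8 of exon 15 had winscores of 1.83 in the first pair, 4.23 and 3.59 in WT versus 6.87 and 2.45 in KO, and it was the highest window of the exon in all pairs but KO replicate 2, where window 9 had 2.51. The IP there was 4.38, then 16.6 and 15.4 in WT versus 104 and 5.81 in KO, over inputs of 1.05 to 2.11. Window 9 had 1.21 in the first pair, 3.80 and 3.40 in WT versus 5.93 and 2.51 in KO. The spread of the KO pairs covered the WT pairs. In Ncam1, window 39 of exon 1 had winscores of 0.58, then 3.33 and 3.90 in WT versus 4.98 and 2.25 in KO, and the KO pairs again lay on both sides of WT. Window 57 had 0.32, then 3.34 and 2.79 in WT versus 3.89 and 2.37 in KO, and window 58 had 0.53, then 3.05 and 2.10 in WT versus 3.81 and 2.36 in KO.

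In Vim the highest winscore was 1.24 in the first pair, in window 8 of exon 1. In the WT and KO pairs the highest window was in different places. It was window 8 of exon 9 in WT replicate 1 (2.51) and KO replicate 1 (6.52), and window 1 of exon 1 in WT replicate 2 (3.26) and KO replicate 2 (2.97). In KO replicate 1, where the IP gene median was 0, the IP in window 8 of exon 9 was 27.5 over an input of 2.14. Vim was thus a gene of ample input whose IP signal was low in all pairs and held no region in the first pair.

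**Figure D5:**
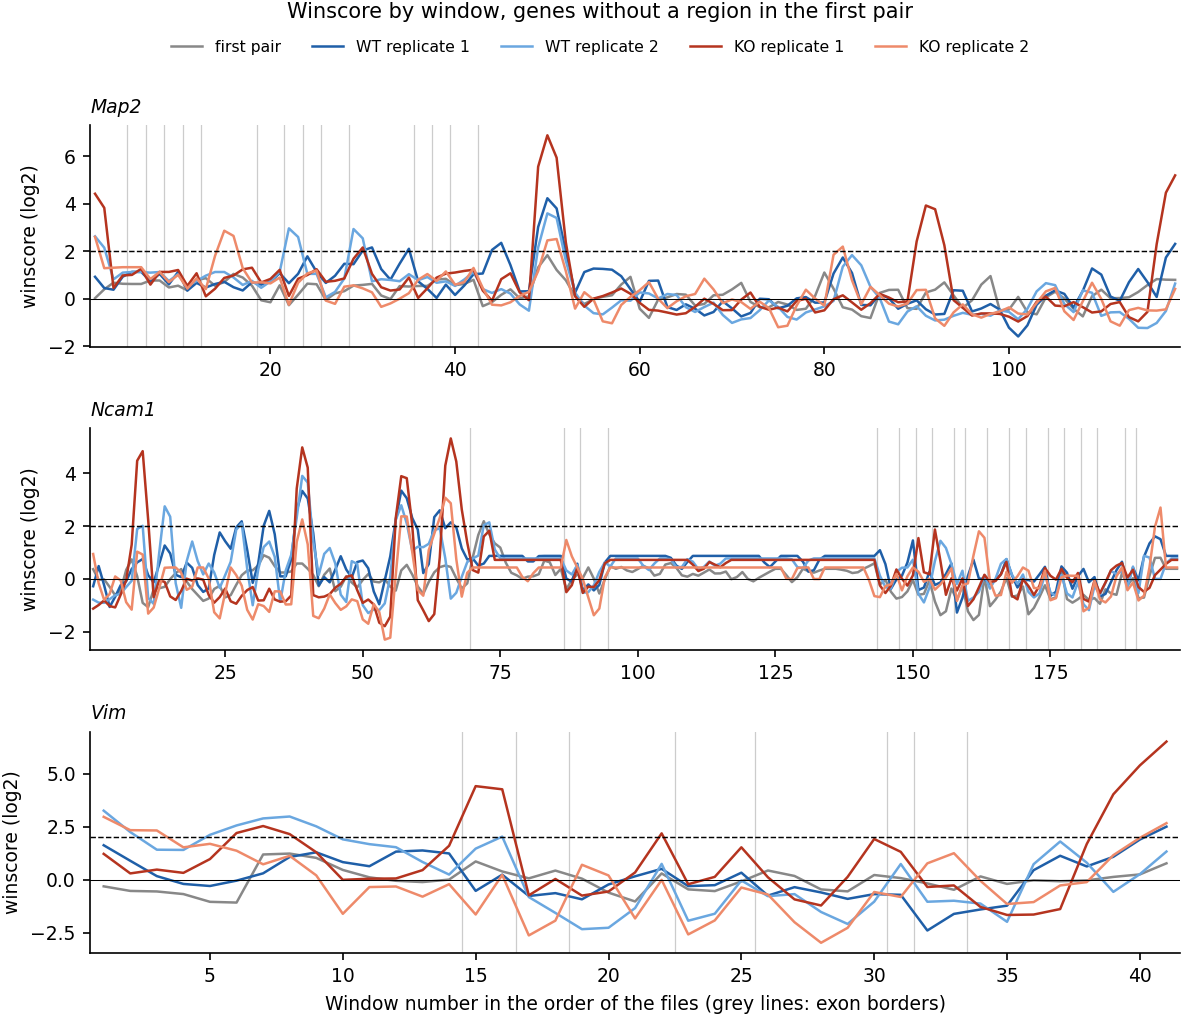
Winscore (log2) by window along Map2, Ncam1 and Vim in the order of the files, 1 line per pair, with a dashed line at 2 and grey lines at exon borders. The first pair stays below 2 along Map2 and Vim, while a short run in exon 15 of Map2 rises above it in all WT and KO pairs (up to 6.87 in KO replicate 1). The highest windows of Vim differ between the pairs (6.52 in KO replicate 1).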

How the data were processed

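Per the labels, 10 libraries formed 5 pairs of m6A IP and input: 1 pair without a stated genotype, 2 mettl3 WT and 2 mettl3 KO. Libraries kept the strand (dUTP), and reads were aligned with TopHat 1.1.3 to mm9, per the submitters' processing notes; the sources used here do not state filters, gene model, window width or the use of strand in counting. The deposited window tables give coverage, a signal scaled by the authors with a factor that is not stated, for 1510223 exon windows. They give a log2 winscore, per the file headers, and recomputing it from the deposited signal gave the same values to within 5.0e-14. A deposited table gives RPKM per gene, per the file headers. Its KO columns followed the KO IP libraries, so it served as an alternative. Relative depth came from the smallest step of each library's coverage (tolerance 0.001), and absolute read numbers are unknown.

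The members and all gene lists were chosen with earlier results of these data known. Levels were tested with limma 3.58.1 in R 4.3.3 (lmFit, eBayes with trend) on log2(coverage + 1), a pseudocount of 1, over all genes that reached 1 in 2 or more of 4 inputs. Regions were tested over all regions on the mean winscore, and on log2((IP + 1)/(input + 1)) less each pair's median outside regions. P-values were adjusted by Benjamini-Hochberg with a threshold of 0.05. The tests were tried on simulated data. Named genes were the 7 members and Mettl3, at most 4 genes per direction and list with the smallest p, and the 2 nearest genes in pattern to each tested member with enough input. Not all genes allowed by this rule are printed. No genome was used, and the files give no coordinates, so positions are windows and exons. RefSeq tables (GRCm38.p6) gave strands, overlaps and promoters only. Alternatives were other pseudocounts, filters, thresholds and centring, the RPKM and the gene median, the replicate block, and leaving out each replicate. Summaries used Python 3.11.15, numpy 2.4.6 and pandas 2.3.3, with figures from matplotlib 3.10.9.

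Same-numbered WT and KO libraries did not deviate together (r = -0.027 for input coverage over 11211 genes, 0.027 for winscores over 9963 regions), so replicate numbers were not used as pairs.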

Additional observations from a re-analysis of the deposited data

How the results depend on the processing

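The calls of Nes, Neurod1, Sox1 and Vim kept their direction under another pseudocount, centring on the median and each left-out replicate, and all but Vim without WT replicate 2 kept their call there (Vim -0.40 to -0.24). The number of genes called (2977) was 1930 with a minimum of 5, 1232 with the deposited gene median, 7965 with RPKM and 1743 to 3144 with a replicate left out. With a minimum of 5, Nes, Sox1, Neurod1 and Map2 were no longer tested, and with the deposited gene median Sox1 was not tested. Without a filter the number of genes called was 15, and the same changes no longer passed in limma: Nes 1.13 (adjusted p = 0.12), Sox1 -0.55 (0.198), Neurod1 -0.66 (0.214), Vim -0.32 (0.234). This setting tests 30419 genes and also fits the variances over all of them. The SE were then 0.114 for Nes, 0.105 for Sox1, 0.137 for Neurod1 and 0.072 for Vim. With the filter they were 0.096, 0.097, 0.099 and 0.072. Why these calls were lost was not tested. With the RPKM values Sox1 (1.37) and Neurod1 (1.45) were reversed, Tubb3 passed (0.92, limma adjusted p = 0.00682) and Vim did not (-2.05, 0.0604). As a replicate block, the numbers gave 2737 genes called and no other call among the 6 genes tested. With the block, 60 regions passed on the winscore (13 higher, 47 lower), none of them in these genes, and 0 on the ratio. Left-out replicates gave 0 to 1221 regions on the winscore and 0 to 1562 on the ratio. The Neurod1 region ranged from -0.27 to 0.64 on the mean winscore and from -0.56 to 0.084 on the ratio. Taken by its highest window, its winscore difference was 1.54 (limma adjusted p = 0.65). At a region threshold of 3, 5569 regions in WT and 5521 in KO passed against 0, of 5583. Causes were not tested. Shallow IPs, with most windows of Sox1, Ncam1 and Map2 at 0 in KO, limit what can be seen at single windows, and a test that did not pass does not show that KO and WT are alike.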
